A study of Mus musculus with 24 samples.

Results

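The control hairpin and the empty vector were compared in Cd146+ cells, the liver endothelial sinusoidal cells of the study, in 6 of its 24 RNA sequencing libraries. The members were chosen by their labels: the 3 libraries labelled nc shRNA (replicates 1, 3 and 5) and the 3 labelled empty vector (replicates 2, 4 and 5), with the raw read count of each gene. Both groups are controls, and neither carries a construct directed at P16Ink4a. The comparison therefore asks how far the base lines of the silencing and the overexpression experiment lie apart. According to the methods, the cells came from livers of 3-month-old female C57BL/6 mice, were cultured, were transduced with lentivirus and were harvested 1 week later. The nc shRNA was a non-coding small hairpin RNA in the pLKO.1 vector, and the empty vector was pLenti-C-mGFP-P2A-Puro without an insert. The groups thus differ in the hairpin and in the whole vector backbone at once, and these cannot be told apart. Neither the labels nor the methods give untransduced libraries for these cells, so a value lower with nc shRNA and a value higher with empty vector cannot be told apart either.

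Between 17710522 and 25523585 reads were counted on genes in the 6 libraries. Where no read was counted, up to 3 counts remain possible, which is 0.118 to 0.169 CPM (counts scaled to the size of the library), for counting error only. The libraries differ in ways that the labels of construct and cell type do not explain. Xist, the RNA of the inactive X chromosome, was read in nc shRNA replicate 5 and empty vector replicates 4 and 5 (574 to 785 CPM) and was at most 0.161 CPM in the other 3 libraries. Ddx3y, a gene of the Y chromosome, was at 65.4 to 135 CPM in nc shRNA replicates 1 and 3 and empty vector replicate 2 and at 0 in the others, although the methods name female mice. This pattern followed the replicate number throughout the study. Ddx3y was read in every library numbered 1, 2 or 3, of either population and any construct, and in none numbered 4, 5 or 6. A term for the pattern, used below, therefore groups the replicate numbers. Replicate 5 of nc shRNA and replicate 5 of empty vector correlated with r = 0.991 over log2 CPM, against 0.904 to 0.948 for the 6 pairs within a group and 0.876 to 0.953 for the 8 other pairs between groups. What the replicate numbers stand for is not given in the sources used here.

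The labelled cell type was checked against its markers. Pecam1, which encodes Cd31, was at 139 to 268 CPM in 5 libraries and at 10.1 CPM in nc shRNA replicate 3, and Mcam, which encodes Cd146 itself, was at 152 to 392 CPM in those 5 libraries and at 11.6 CPM in nc shRNA replicate 3. The 15 endothelial markers summed to 1447, 372 and 2089 CPM with nc shRNA and to 963, 1714 and 2449 CPM with empty vector. The 13 sinusoidal markers summed to 314, 395 and 511 CPM with nc shRNA and to 159, 171 and 568 CPM with empty vector. Among them the transcription factor genes Maf and Gata4 were read in every library (46.6 to 245 and 71.8 to 164 CPM) and Stab1 at 7.08 to 373 CPM, whereas Stab2 and Clec4g were at most 0.979 and 0.0419 CPM in all 6 libraries. Of other cell types, the 16 macrophage markers summed to 27.8 to 355 CPM with nc shRNA and to 29.5 to 333 CPM with empty vector, and the Kupffer cell genes Clec4f and Marco were at 0 in every library. The 14 mesenchymal markers summed to 9864 to 20046 CPM with nc shRNA and to 6654 to 21708 CPM with empty vector, with the stellate cell gene Lrat at 0. The 8 mesothelial markers reached 1337 CPM in nc shRNA replicate 3, where Msln was at 433 CPM against 9.60 to 49.3 CPM in the other 5 libraries. The 11 hepatocyte markers summed to 51.0 to 351 CPM, nearly all of it Ass1 (50.7 to 349 CPM), an enzyme of the urea cycle that other cells also use, while Alb was at most 0.452 CPM, and the 10 lymphoid markers summed to at most 0.723 CPM. In such bulk samples fewer cells of a type and less RNA per cell cannot be told apart. The part of these differences in the results was not tested, other than by the values without single libraries given with each result.

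Lentiviral particles bring RNA and a DNA copy of it into the cell, and cells hold sensors for both. Cytosolic RNA sensors such as Ifih1 and DNA sensors such as Cgas lead, through Irf3 and Irf7, to type I interferon, which acts through its receptor on factors such as Stat2 and Irf9. These bind, in a complex, the interferon-stimulated response element in the promoters of antiviral genes, and the genes of these factors are themselves induced. A double-stranded hairpin is a substrate of the RNA interference machinery and, at high amounts, of RNA sensors.

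Of 14976 genes tested, 597 (3.99%) differed between nc shRNA and empty vector at an unadjusted p under 0.05, of which 278 (1.86%) were higher and 319 (2.13%) lower with nc shRNA. None passed the adjusted threshold of 0.05 by edgeR's quasi-likelihood test, where the smallest adjusted p was 0.907, whereas DESeq2's Wald test gave 4 genes under 0.05 (Ifit3b and Igfbp4 lower, Cxadr and Fras1 higher). Log2 fold changes and 95% intervals of single genes below are from edgeR without the replicate block unless another fit is named, and some genes are given by CPM alone. None of them was called after adjustment by edgeR. Of 53 genes printed that had an unadjusted p under 0.05 and were followed through the other fits, 13 kept it with the replicate block, and 2 changed sign. mt-Atp6, printed below but not among these 53, changed sign too, to a log2 fold change of 0.07. Called below means an unadjusted p under 0.05. A gene described as lower or higher at an unadjusted p under 0.05 has an interval that excludes zero. Since nothing states that the libraries came from separate animals or cultures, a p-value measures the spread between these libraries. In 711 genes (4.75%) all 3 nc shRNA libraries lay below all 3 empty vector libraries, and in 678 (4.53%) they all lay above. The count was set by single libraries: when replicate 1, 3 or 5 of nc shRNA was left out it was 227, 184 or 1510, and when replicate 2, 4 or 5 of empty vector was left out it was 489, 291 or 825. With the replicate number as a block over all 12 Cd146+ libraries, in which empty vector enters through its replicate 5 alone, it was 374. In the fit with a term for the Xist or Ddx3y pattern, 295 genes differed between the constructs, and 1326 of 15803 genes (8.39%) differed with the pattern itself.

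**Figure D1:**
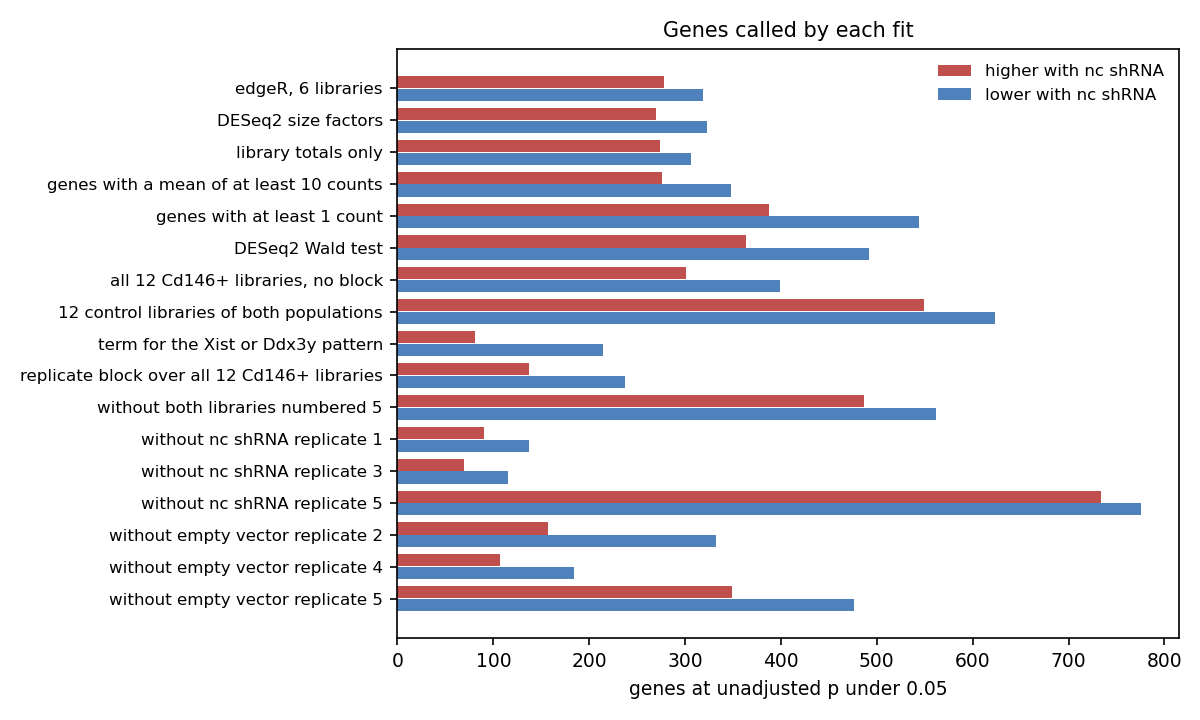
Number of genes at an unadjusted p under 0.05 (horizontal axis) in each fit (vertical axis), with red bars for genes higher and blue bars for genes lower with nc shRNA. The fit without nc shRNA replicate 5 gave 734 and 776 genes, and the fit without nc shRNA replicate 3 gave 69 and 115.

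Genes of the interferon response were lower with nc shRNA. Of the 50 genes listed, 45 passed the low-count filter, and 42 of them had a negative and 3 a positive log2 fold change. At an unadjusted p under 0.05, 20 of the 45 (44.4%) were lower and 0 higher, where 2.13% of all genes were lower. In 21 of them the nc shRNA libraries all lay below the empty vector libraries, against 4.75% of all genes. The median log2 fold change of the 45 was -0.93, and that of all genes was -0.02. The mean log2 CPM of the 50 genes was 1.60, 1.94 and 2.62 in nc shRNA replicates 1, 3 and 5 and 2.55, 3.56 and 3.41 in empty vector replicates 2, 4 and 5. As means, the groups thus overlapped, with nc shRNA replicate 5 above empty vector replicate 2.

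**Figure D2:**
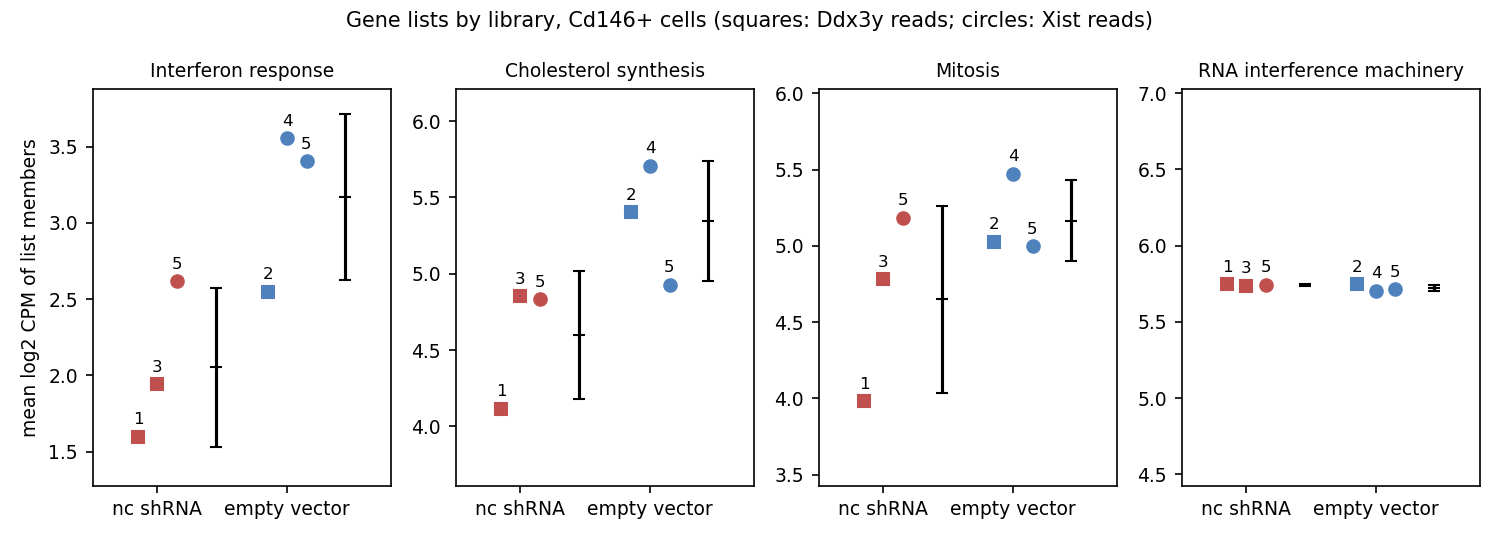
Mean log2 CPM of the listed genes (vertical axis, each panel spanning the same range) in each library, by construct (horizontal axis), for 4 gene lists. Numbers are replicate numbers, squares are libraries with Ddx3y reads, circles are libraries with Xist reads, and black bars give the mean and SD of the 3 libraries. Interferon response values were 1.60 to 2.62 with nc shRNA and 2.55 to 3.56 with empty vector, and values of the RNA interference machinery lay between 5.70 and 5.75.

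Promoters are shown for the interferon genes because the response element is what such genes are known to share. RefSeq promoters (build GRCm38.p6, 250 bases before to 50 after the start) were found for 39 of the 50 genes. The core of the element was searched on both strands as GAAANNGAA. It was in the promoters of 24 of these 39 genes (61.5%), against 9.76% of the 27025 genes with a promoter. Among genes lower at an unadjusted p under 0.05 it was in 9 of 16, and among the tested genes above that p in 13 of 19. The windows of 80 bases below are written in the direction of the gene, with the matches in capitals. A match is a description of the letters and was not tested for binding.
Isg15, chr4:156200847-156200926, minus strand: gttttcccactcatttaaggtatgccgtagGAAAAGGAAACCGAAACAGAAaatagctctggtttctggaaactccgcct
Ifit3b, chr19:34607761-34607840, plus strand: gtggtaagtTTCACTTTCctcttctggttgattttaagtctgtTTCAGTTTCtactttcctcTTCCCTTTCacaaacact
Ifit1, chr19:34640757-34640836, plus strand: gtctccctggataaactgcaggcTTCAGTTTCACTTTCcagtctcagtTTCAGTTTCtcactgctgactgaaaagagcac
Stat2, chr10:128270248-128270327, plus strand: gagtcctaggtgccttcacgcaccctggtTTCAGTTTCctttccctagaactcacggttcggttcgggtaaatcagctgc
Igtp, chr11:58199486-58199565, plus strand: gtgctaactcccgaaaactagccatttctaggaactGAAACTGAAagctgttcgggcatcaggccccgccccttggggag
Isg15 held 3 matches, each overlapping the next, the first starting 78 bases before the gene's start. Ifit1 and Ifit3b held 3 matches each, and Stat2 and Igtp 1 each. The window of Ifit3 has the same 80 bases as that of its neighbour Ifit3b, and since such near-identical copies can share reads, the counts of both are uncertain.

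Among the factors that carry the interferon signal, Stat2, Irf9 and Irf7 were lower with nc shRNA. Stat2 was at 22.5, 25.1 and 26.1 CPM in nc shRNA replicates 1, 3 and 5 and at 35.1, 34.5 and 35.3 CPM in empty vector replicates 2, 4 and 5. Its libraries were tight within each group and did not overlap (log2 fold change -0.51, 95% interval -0.81 to -0.21). Irf9, the DNA-binding part, was at 21.9, 22.5 and 19.4 CPM against 25.2, 38.2 and 32.8 CPM (log2 fold change -0.59, 95% interval -1.05 to -0.14). Irf7, the interferon-induced factor that amplifies the response, was at 1.81, 3.56 and 3.03 CPM against 5.29, 8.49 and 9.03 CPM (log2 fold change -1.44, 95% interval -2.35 to -0.52). In none of these genes did the groups overlap, which the naming rule required of Stat2 and Irf7. Usp18, which dampens signalling at the receptor, was at 0.439, 1.59 and 1.38 CPM against 2.10, 7.27 and 3.52 CPM (log2 fold change -1.91, 95% interval -3.55 to -0.27).

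Among the effector genes the differences ranged widely. Ifit3b, of the family that binds viral RNA, had the smallest p of all genes tested, with 1.48, 1.63 and 1.60 CPM with nc shRNA and 4.32, 10.9 and 6.50 CPM with empty vector. The groups did not overlap (log2 fold change -2.20, 95% interval -3.20 to -1.19). Isg15, a ubiquitin-like modifier, was at 0.823, 3.31 and 3.36 CPM with nc shRNA and at 5.89, 17.4 and 15.8 CPM with empty vector (log2 fold change -2.38, 95% interval -3.996 to -0.75). In Ifit1 the values were 2.08, 6.24 and 6.998 CPM against 9.97, 12.4 and 22.5 CPM (log2 fold change -1.55, 95% interval -2.86 to -0.23), and in Ifit3 13.2, 12.8 and 16.9 CPM against 19.7, 23.3 and 32.9 CPM (log2 fold change -0.82, 95% interval -1.41 to -0.23). The lowest empty vector library of all 4 genes was replicate 2, 1 of the 3 libraries with Ddx3y reads, and it lay above every nc shRNA library. The naming rule required this of Ifit3b, and the other 3 genes were named with their values known. Lgals3bp, a secreted glycoprotein, was at 58.9, 43.2 and 55.0 CPM against 83.8, 193 and 118 CPM (log2 fold change -1.33, 95% interval -2.12 to -0.54). Trim30a, an interferon-induced ubiquitin ligase of the TRIM family, was at 5.21, 5.66 and 6.78 CPM against 11.2, 23.1 and 9.85 CPM (log2 fold change -1.32, 95% interval -2.23 to -0.41). Ifi27, a small interferon-induced membrane protein, was at 84.9, 99.5 and 125 CPM against 128, 186 and 170 CPM (log2 fold change -0.65, 95% interval -1.16 to -0.14). The membrane protein gene Ifitm3, the most abundant of the list in CPM, differed less, with 219, 255 and 244 CPM against 287, 328 and 309 CPM (log2 fold change -0.36, 95% interval -0.70 to -0.03).

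**Figure D3:**
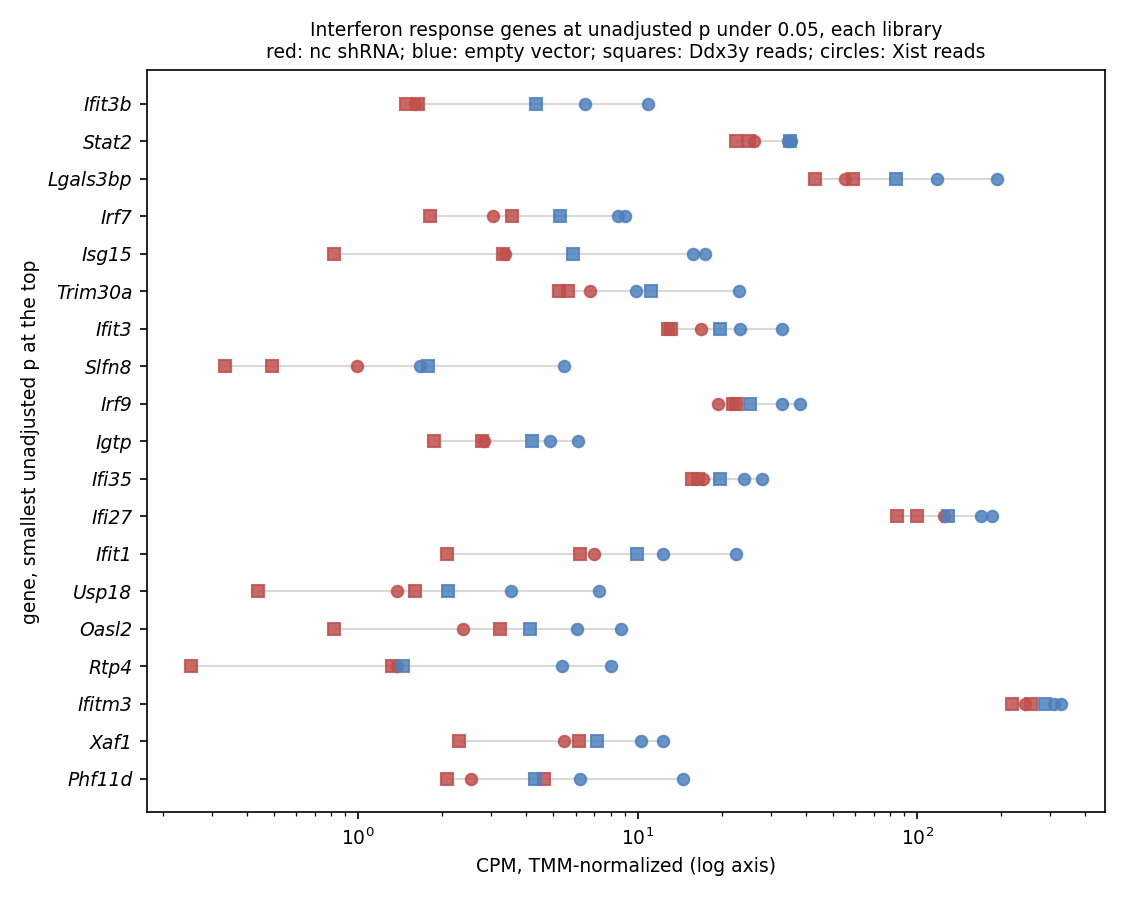
CPM on a log axis (horizontal) of 19 of the 20 interferon response genes at an unadjusted p under 0.05 (vertical), with red for nc shRNA, blue for empty vector, squares for libraries with Ddx3y reads and circles for libraries with Xist reads. The groups did not overlap in any gene shown other than Phf11d, where nc shRNA replicate 3 (4.61 CPM) lay above empty vector replicate 2 (4.28 CPM). The genes were chosen by that p, which favours groups without overlap.

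Not every interferon gene followed in the comparison of 3 against 3 libraries. Among the immunity-related GTPases, Igtp was at 1.87, 2.77 and 2.81 CPM against 4.20, 6.11 and 4.88 CPM (log2 fold change -1.03, 95% interval -1.82 to -0.23), while its relative Irgm1 was at 89.4, 171 and 90.8 CPM against 119, 74.3 and 123 CPM, with overlapping groups. The guanylate-binding protein genes Gbp2, Gbp3 and Gbp5 were high in the libraries with Xist reads of either construct. Gbp2 was at 4.44 and 3.06 CPM in nc shRNA replicates 1 and 3 and 6.82 CPM in empty vector replicate 2, and at 55.3 CPM in nc shRNA replicate 5 and 47.4 and 65.6 CPM in empty vector replicates 4 and 5. Ifit2, Herc6 and Irgm1 were the 3 genes with a positive log2 fold change (0.32, 0.20 and 0.15), each with a 95% interval that includes zero. The sign of Irgm1 depended on the fit. Its log2 fold change was -0.39 with the replicate block and -0.53 in Cd31+ cells, and its libraries numbered 5 differed by -0.44.

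**Figure D4:**
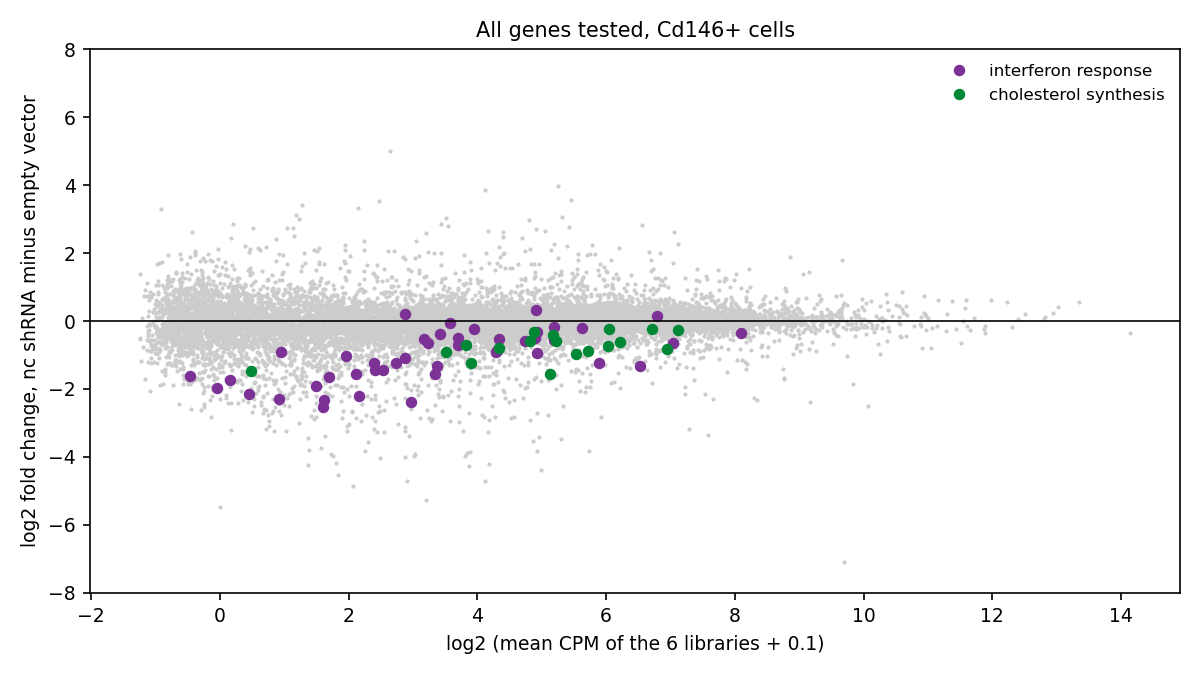
Log2 fold change of nc shRNA minus empty vector (vertical axis) against log2 of mean CPM plus 0.1 (horizontal axis) for the genes tested. Purple points are interferon response genes, 42 of 45 below zero, and green points are cholesterol synthesis genes, 18 of 18 below zero.

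The sensors upstream of interferon were mixed. Of 15 listed, 12 were tested, 3 (25.0%, against 2.13% of all genes) were lower at an unadjusted p under 0.05 and 0 higher. Their median was -0.19 on the log2 scale. The 3 encode RNA-binding proteins, as do Ddx58 and Eif2ak2 below, which were not called. Dhx58 was at 1.32, 2.39 and 1.21 CPM against 4.68, 3.78 and 3.88 CPM (log2 fold change -1.32, 95% interval -2.27 to -0.37), Ifih1 at 6.14, 12.9 and 8.38 CPM against 14.2, 20.7 and 15.2 CPM (log2 fold change -0.87, 95% interval -1.65 to -0.09), and the RNA-editing enzyme Adar at 28.9, 28.5 and 35.7 CPM against 37.6, 43.4 and 50.4 CPM (log2 fold change -0.50, 95% interval -0.91 to -0.09). Of the 3, Dhx58 was called with the replicate block too. The adaptors and kinases were nearly level: Mavs was at 39.5 to 45.8 CPM with nc shRNA and 38.4 to 50.3 CPM with empty vector, and Tbk1 at 47.6 to 52.0 and 47.0 to 49.3 CPM. Ddx58, which encodes the RNA sensor RIG-I, overlapped between groups (33.4, 67.8 and 46.1 CPM against 40.3, 63.4 and 64.9 CPM). Eif2ak2, the kinase that double-stranded RNA activates, was at 51.7 to 54.4 CPM and 43.3 to 60.9 CPM. The machinery that processes hairpins, from Drosha and Dicer1 to the Argonaute genes, had 14 genes tested and 0 at an unadjusted p under 0.05 in either direction, where 3.99% of all genes were called. Its median was 0.05 on the log2 scale. Ago2, the slicing Argonaute, was at 168, 176 and 139 CPM with nc shRNA and 152, 108 and 137 CPM with empty vector. Xpo5, the exporter of hairpin precursors, was at 91.9 to 102 CPM against 86.0 to 104 CPM, with a log2 fold change of 0.05 and a 95% interval of -0.26 to 0.35, and -0.08 with the replicate block.

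Of 20 genes of antigen presentation, another set that interferon induces, 17 had a negative log2 fold change, and 2 of the 20 were lower at an unadjusted p under 0.05, where 2.13% of all genes were. Neither was called once the replicate block was fitted. In 4 of the 20 the nc shRNA libraries all lay below the empty vector libraries, against 4.75% of all genes. Tap2, a subunit of the peptide transporter, was at 14.4, 16.8 and 19.1 CPM with nc shRNA and 27.0, 35.2 and 24.7 CPM with empty vector (log2 fold change -0.79, 95% interval -1.27 to -0.31). The class I heavy chain gene H2-D1 was at 52.4, 52.1 and 62.6 CPM against 79.5, 124 and 79.4 CPM (log2 fold change -0.76, 95% interval -1.28 to -0.24). Neither gene overlapped between groups, which the naming rule required of Tap2. B2m, the light chain, did overlap (364 to 409 CPM against 353 to 490 CPM). The list's median was -0.33. Its most abundant members in CPM, the chaperones Pdia3, Calr and Canx, overlapped too, and the log2 fold change of Pdia3 was 0.01 with a 95% interval of -0.34 to 0.37 and turned to -0.0038 when scaled to library totals. Reads of the class I genes can be split among near-identical copies, which leaves H2-D1 uncertain. Of 27 genes of inflammation, 20 were tested and 5.00% were called in each direction, against 1.86% higher and 2.13% lower among all genes. There was 1 higher (Lif, 110, 78.0 and 36.9 CPM against 32.3, 13.1 and 37.4 CPM, log2 fold change 1.44, 95% interval 0.15 to 2.73) and 1 lower (Ccl9, 0.768, 1.05 and 4.79 CPM against 17.2, 19.2 and 3.34 CPM, log2 fold change -2.59, 95% interval -4.92 to -0.26). In Lif the libraries numbered 5 were nearly level, and in Ccl9 they differed by 0.51 on the log2 scale, opposite to the difference of the groups. The block gave log2 fold changes of 0.06 and 0.21, so that neither gene was called and Ccl9 changed sign.

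The number 5 is the only one that both groups share, and it gives 1 nc shRNA and 1 empty vector library that are alike in most genes. Of the 45 interferon genes tested, 45 were lower in nc shRNA replicate 5 than in empty vector replicate 5, where 52.1% of all genes were lower. Their median log2 difference was -0.60, and that of all genes was -0.01. Isg15 differed by -2.20, Ifit3b by -1.96, Ifit1 by -1.67 and Irf7 by -1.55 on the log2 scale within this pair. These were among the larger differences, and other genes were nearly level, such as Ifit2 (-0.04) and Herc6 (-0.11). These 2 libraries have no replicate of their own, so this is a difference of 2 libraries with no test. Within the libraries with Ddx3y reads (nc shRNA replicates 1 and 3 against empty vector replicate 2) the median log2 difference was -0.60 (41 of 45 lower). Within those with Xist reads (nc shRNA replicate 5 against empty vector replicates 4 and 5) it was -0.76 (42 of 45 lower), and this comparison holds the number 5 pair again. Both were chosen after the data were seen, and neither was tested. In the fit with a term for that pattern, 15 of the 45 genes were lower at an unadjusted p under 0.05. Leaving out nc shRNA replicate 3, the library poor in endothelial markers, left 18 lower genes, and leaving out nc shRNA replicate 1 or empty vector replicates 4 or 5 left 12, 10 or 12. With the replicate block, 4 of the 20 lower genes (Isg15, Irf9, Xaf1 and Ifitm3) kept an unadjusted p under 0.05, and the median of the 45 was -1.02. The log2 fold changes with the block were -0.59 for Stat2, -2.76 for Ifit3b and -2.07 for Irf7, none of them called, and Ifi27 was at -0.21.

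**Figure D5:**
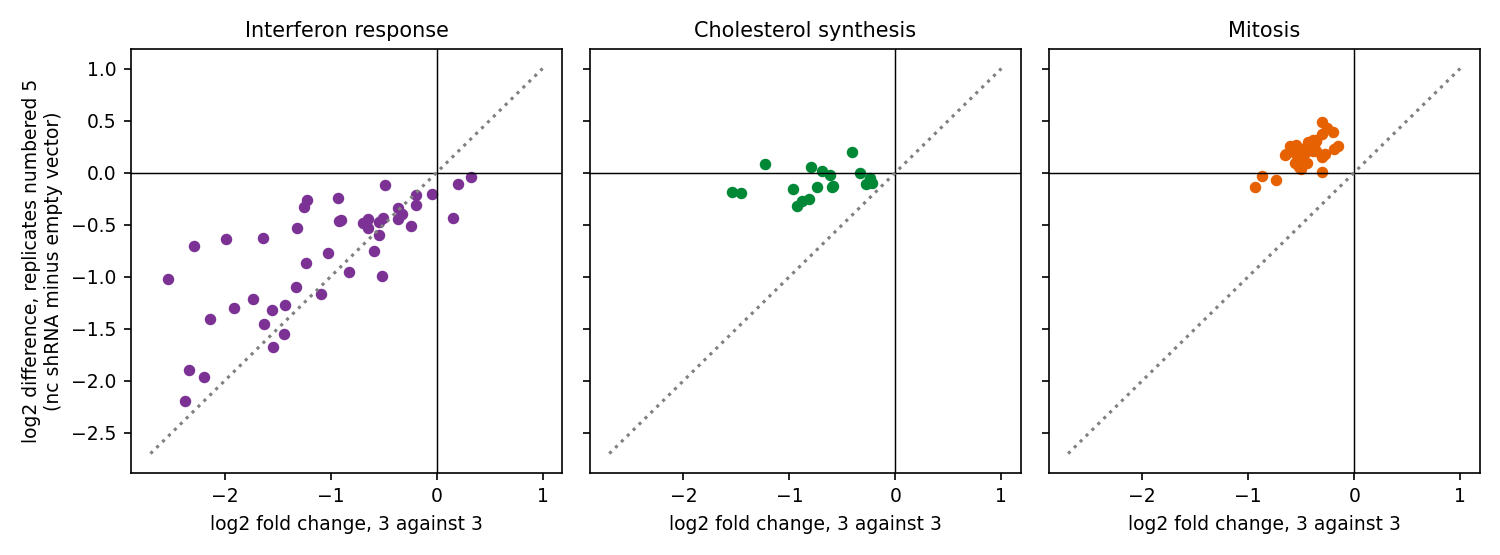
Log2 difference between nc shRNA replicate 5 and empty vector replicate 5 (vertical axis) against the log2 fold change of the 3 nc shRNA against the 3 empty vector libraries (horizontal axis), 1 point a gene, for 3 gene lists, with a dotted line where both are equal. Both axes include the libraries numbered 5. All 45 interferon genes lay below zero on the vertical axis, with a median of -0.60, whereas the medians were -0.12 for cholesterol synthesis and 0.20 for mitosis.

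The same 2 vectors were compared in the Cd31+ cells of the study, the general liver endothelial population, with 3 libraries a group. All 3 nc shRNA libraries and empty vector replicates 1 and 2 had Ddx3y reads there, and empty vector replicate 5 had Xist reads, so the groups differ in this pattern too. Whether a replicate number stands for the same source in both populations is not given, so the Cd31+ values cannot be taken as independent. There, 44 of the same 45 interferon genes had a negative log2 fold change, 10 were lower at an unadjusted p under 0.05 and the median was -1.07, where 1.73% of 14473 genes were lower and 1.43% higher. The Cd31+ groups share the numbers 1 and 2. Of 46 interferon genes tested there, 39 were lower in nc shRNA replicate 1 than in empty vector replicate 1 (51.0% of all genes) and 46 in nc shRNA replicate 2 than in empty vector replicate 2 (50.5% of all genes), with medians of -0.61 and -1.46. The difference between the populations was tested as an interaction over the 12 control libraries, without a replicate block. It gave 223 of 15676 genes at an unadjusted p under 0.05 (1.42%), 0 after adjustment by edgeR and by DESeq2's Wald test, and 0 of the 45 interferon genes. Their median interaction was 0.31 on the log2 scale, the Cd146+ value minus the Cd31+ value. A p above the threshold does not show that both populations acted alike.

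Some other genes were also lower in both populations. Of the 319 genes lower with nc shRNA in Cd146+ cells, 48 were lower at an unadjusted p under 0.05 in Cd31+ cells as well, which is 15.05% of the Cd146+ and 19.12% of the Cd31+ genes, while 15 were higher in both (5.40% and 7.25%). Mgat4b, which adds a branch to N-glycans, was among them, with 65.6, 40.1 and 64.4 CPM against 113, 139 and 108 CPM in Cd146+ cells (log2 fold change -1.08, 95% interval -1.64 to -0.53) and a log2 fold change of -1.21 in Cd31+ cells. The ubiquitin ligase gene Rnf166 was at 22.7, 21.1 and 25.1 CPM against 34.6, 39.2 and 34.5 CPM (log2 fold change -0.65, 95% interval -0.99 to -0.32), with -0.72 in Cd31+ cells. Gcnt2, a glycan-branching enzyme, was at 22.8, 21.5 and 25.2 CPM against 56.7, 95.9 and 39.8 CPM (log2 fold change -1.47, 95% interval -2.27 to -0.67), with -0.56 in Cd31+ cells. Tulp3, which brings receptors into cilia, was at 33.9 to 53.4 CPM against 69.2 to 91.9 CPM. The retinol dehydrogenase gene Rdh11 was at 22.3 to 25.5 CPM against 33.9 to 37.0 CPM. In all 5 genes the groups did not overlap, which the rule for naming them required. Dact3, an antagonist of Wnt signalling, was at 29.6, 29.4 and 35.2 CPM against 48.0, 46.6 and 45.4 CPM (log2 fold change -0.57, 95% interval -0.89 to -0.26). In Cd31+ cells its log2 fold change was -0.28, and it was not called there. Of the 12 lower genes of smallest p, 6 kept an unadjusted p under 0.05 with the replicate block, which were these 5 and Dact3.

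Genes of cholesterol synthesis and uptake had the same share of lower genes as the interferon list. Sterol-regulated genes are switched on together when a cell is short of cholesterol, through Srebf2. All 18 listed genes were tested, 18 had a negative log2 fold change, and 8 (44.4%, against 2.13% of all genes) were lower at an unadjusted p under 0.05, at a list median of -0.71. Their mean log2 CPM was 4.12, 4.85 and 4.83 with nc shRNA and 5.40, 5.71 and 4.93 with empty vector. The highest values were those of empty vector replicates 2 and 4, while empty vector replicate 5 was near nc shRNA replicates 3 and 5. Msmo1, a sterol demethylation enzyme, was at 28.7, 35.5 and 46.9 CPM against 68.2, 79.8 and 56.8 CPM (log2 fold change -0.88, 95% interval -1.43 to -0.33). Dhcr7, an enzyme of the last steps of synthesis, was at 6.69, 7.21 and 9.42 CPM against 12.1, 20.5 and 11.8 CPM (log2 fold change -0.93, 95% interval -1.64 to -0.21). Sqle, among the most abundant of the list in CPM, overlapped between groups (90.2, 127 and 72.3 CPM against 123, 144 and 74.9 CPM). The libraries numbered 5 differed by a median of only -0.12 over the list, and 14 of the 18 genes were lower in the nc shRNA library. With the replicate block, 0 of the 18 were lower at an unadjusted p under 0.05, at a median of -0.30, and with the term for the Xist or Ddx3y pattern 3 were. Leaving out replicate 1 or 3 of nc shRNA gave 2 or 5, and leaving out replicate 2 or 4 of empty vector gave 3 or 2. In Cd31+ cells the median was -0.27 with 1 gene lower.

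RefSeq promoters were found for 11 of the 18 genes. The core of the sterol response element, searched on both strands as TCACNCCAC, was in 1 of them, Hmgcs1, and in 1.44% of all genes with a promoter. The window of 80 bases holds the match 137 bases before the start.
Hmgcs1, chr13:119690178-119690257, plus strand: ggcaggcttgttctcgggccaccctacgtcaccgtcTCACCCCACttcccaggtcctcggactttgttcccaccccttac
Hmgcs1, which makes the substrate of the rate-limiting step, was at 36.2, 60.2 and 50.5 CPM with nc shRNA and at 94.6, 94.6 and 55.6 CPM with empty vector (log2 fold change -0.74, 95% interval -1.42 to -0.05). Empty vector replicate 5 lay below nc shRNA replicate 3, so the groups overlapped.

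Genes of mitosis had a uniform sign but few calls. All 40 tested genes had a negative log2 fold change, with a median of -0.44, where that of all genes was -0.02. At an unadjusted p under 0.05, 1 was lower (2.50%, against 2.13% of all genes). It was Cdc20, an activator of the anaphase-promoting complex (20.3, 30.9 and 47.2 CPM against 47.6, 88.5 and 52.1 CPM, log2 fold change -0.94, 95% interval -1.87 to -0.0040). The list's mean log2 CPM was 3.98, 4.78 and 5.18 with nc shRNA and 5.03, 5.47 and 5.00 with empty vector, so that nc shRNA replicate 1 was lowest and nc shRNA replicate 5 lay above empty vector replicates 2 and 5. The proliferation marker Mki67 was at 36.9, 76.8 and 106 CPM against 101, 126 and 93.7 CPM, and Top2a, which untangles chromosomes, at 64.5, 122 and 151 CPM against 141, 171 and 126 CPM, with nc shRNA replicate 1 lowest in both. Within the number 5 pair only 3 of the 40 genes were lower with nc shRNA, at a median of 0.20, and the replicate block turned the median to 0.026. In Cd31+ cells the median was -0.01. Of 30 genes of S phase, 1 was higher and 1 lower (3.33% each, against 1.86% and 2.13% of all genes). Rrm1, of ribonucleotide reductase, was at 307, 557 and 272 CPM against 233, 139 and 248 CPM (log2 fold change 0.88, 95% interval 0.0038 to 1.75), and Ccne1, which starts S phase with Cdk2, was at 4.55, 8.68 and 14.2 CPM against 16.2, 24.2 and 18.2 CPM (log2 fold change -1.10, 95% interval -2.13 to -0.06).

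Cdkn2a, the gene of P16Ink4a and the target of the other constructs, had overlapping levels in the 2 controls. The table lists it as ENSMUSG00000044303 on the minus strand of chromosome 4 from 89192708 to 89212890. The submitters' processing notes name mm9, and the starts and ends of only 2.83% of 52073 shared genes equal those of GRCm38, so these coordinates are not set beside other builds. It was at 197, 126 and 97.6 CPM in nc shRNA replicates 1, 3 and 5 and at 69.9, 106 and 106 CPM in empty vector replicates 2, 4 and 5. The group means were 140.4 ± 51.3 and 93.8 ± 20.7 CPM (SD, n = 3 each). The log2 fold change was 0.58 with a 95% interval of -0.16 to 1.33 from edgeR, which includes zero. Within number 5 the difference was -0.11, and with the replicate block it was -0.16. Without nc shRNA replicate 5 it was 0.80, past the unadjusted threshold, and it dropped to 0.26 when replicate 1 of that group was left out. The gene also encodes p19Arf, and a count for the whole gene holds both.

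The neighbour Cdkn2b, which encodes the related inhibitor p15Ink4b, was at 195, 132 and 91.0 CPM against 45.9, 64.2 and 104 CPM (log2 fold change 0.97, 95% interval 0.01 to 1.93). Its order followed that of Cdkn2a in the nc shRNA libraries, and the libraries numbered 5 differed by -0.19. Of 20 genes of senescence and its secretome, 17 were tested, and 1 was higher (Cdkn2b) and 1 lower. These are 5.88% each, against 1.86% higher and 2.13% lower among all genes. The lower one was Igfbp4, a carrier of insulin-like growth factors, at 32.6, 25.1 and 44.7 CPM against 292, 702 and 49.7 CPM (log2 fold change -3.35, 95% interval -5.58 to -1.12), where empty vector replicates 2 and 4 stood apart and empty vector replicate 5 was close to nc shRNA replicate 5. The replicate block gave log2 fold changes of 0.12 for Cdkn2b and -0.25 for Igfbp4, and neither was called. Of 18 targets of p53, 1 was higher (5.56%, against 1.86% of all genes) and 0 lower. The higher one was Eda2r, a death receptor (98.9 to 135 CPM against 75.9 to 97.9 CPM, log2 fold change 0.44, 95% interval 0.01 to 0.87). Cdkn1a, the main p53 target in the cell cycle, was at 342 to 599 CPM with nc shRNA and 314 to 653 CPM with empty vector.

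The genes higher with nc shRNA formed no list fixed for this work, and no list had more than 1 higher gene at an unadjusted p under 0.05. Plch1, a phospholipase C, had the smallest p among those named, with 1.97, 4.95 and 1.82 CPM with nc shRNA and 0.404, 0.513 and 0.723 CPM with empty vector (log2 fold change 2.41, 95% interval 1.05 to 3.77). Cxadr, the receptor of coxsackieviruses and adenoviruses and a protein of cell junctions, was at 288, 330 and 65.9 CPM against 26.1, 32.6 and 52.4 CPM (log2 fold change 2.62, 95% interval 1.07 to 4.17). The large values were those of nc shRNA replicates 1 and 3, and the libraries numbered 5 differed by 0.33 on the log2 scale. The transcription factor gene Foxq1 was at 4.39, 2.77 and 1.82 CPM against 0.767, 0.886 and 1.13 CPM (log2 fold change 1.68, 95% interval 0.58 to 2.79), and the clock gene Npas2 at 6.97, 12.7 and 4.63 CPM against 2.87, 1.96 and 2.98 CPM (log2 fold change 1.64, 95% interval 0.56 to 2.71). Tgfbr3, the co-receptor betaglycan, was at 101, 131 and 49.0 CPM against 28.3, 21.5 and 43.5 CPM (log2 fold change 1.59, 95% interval 0.54 to 2.64). In these 5 genes nc shRNA replicate 5 was the lowest nc shRNA library and empty vector replicate 5 the highest empty vector library. Srp54b, of the signal recognition particle, was at 14.9, 25.1 and 20.5 CPM against 7.18, 4.15 and 10.8 CPM, and Nsmce2, a SUMO ligase of the Smc5 and Smc6 complex, at 35.6, 34.3 and 29.1 CPM against 24.8, 19.7 and 22.5 CPM. The remaining 5 of the 12 higher genes taken by smallest p were Ccdc86, Smyd1, Cep120, Resf1 and Ncoa4. Ncoa4, the receptor that delivers ferritin to the lysosome, was at 105, 102 and 69.8 CPM against 54.6, 47.3 and 65.5 CPM (log2 fold change 0.73, 95% interval 0.22 to 1.24). Cep120, a centriole protein, was the tightest within groups of these 5, with 58.6, 56.5 and 53.8 CPM against 39.9, 30.3 and 42.9 CPM (log2 fold change 0.58, 95% interval 0.18 to 0.97). Smyd1, a methyltransferase known from muscle, was low in both groups (0.771 to 2.91 CPM against 0.282 to 0.559 CPM). With the replicate block, 1 of these 12 genes kept an unadjusted p under 0.05, Cep120. The log2 fold change with the block was 1.17 for Plch1, 0.49 for Cxadr, 0.64 for Foxq1, 0.61 for Npas2 and 0.17 for Tgfbr3.

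The remaining functional lists had 0 to 2 genes called, where 1.86% of all genes were higher and 2.13% lower. Of the 18 genes of the unfolded protein response and stress 1 was lower, Herpud1 of the endoplasmic reticulum (34.5 to 58.5 CPM against 69.3 to 103 CPM, log2 fold change -0.83, 95% interval -1.42 to -0.23). Of 22 genes of the matrix and TGF-beta response 2 were lower, the actin-binding Tagln (6.36, 7.08 and 12.5 CPM against 20.1, 15.01 and 15.8 CPM, log2 fold change -0.98, 95% interval -1.73 to -0.23) and the transcription factor Snai2 (15.6, 9.39 and 18.4 CPM against 80.2, 49.7 and 16.9 CPM, log2 fold change -1.76, 95% interval -3.17 to -0.34, and 0.09 with the replicate block). Of 12 tested mitochondrially encoded genes 1 was lower, mt-Atp6 (10.2, 7.92 and 8.27 CPM against 28.9, 44.8 and 7.86 CPM, log2 fold change -1.63, 95% interval -3.08 to -0.18). Its groups overlapped, since empty vector replicate 5 lay below every nc shRNA library. The log2 fold change of mt-Atp6 was 0.07 with the replicate block and 0.24 in Cd31+ cells. The lists of oxidative stress, hypoxia and glycolysis, immediate early genes and angiogenesis had 0 genes at an unadjusted p under 0.05 among 14, 16, 15 and 18 tested. The angiogenesis list had a median log2 fold change of -0.66, with its lowest mean level in nc shRNA replicate 3 (2.14 on the log2 CPM scale against 3.78 to 4.54 in the other 5 libraries), the library in which the endothelial markers were lowest.

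Several genes of large difference or large spread followed single libraries or the replicate numbers. Sfrp2, a secreted binder of Wnt proteins chosen here after its values were seen, had the lowest log2 fold change of all genes tested (-7.10, 95% interval -13.07 to -1.13). It was at 16.1, 1.43 and 18.7 CPM with nc shRNA and at 58.1, 4872 and 28.5 CPM with empty vector, so that empty vector replicate 4 alone set its size. Sox9, a transcription factor listed as a cholangiocyte marker, was at 4.498, 4.57 and 4.85 CPM against 17.1, 136 and 6.73 CPM (log2 fold change -3.52, 95% interval -6.30 to -0.75), again with empty vector replicate 4 highest. Col1a1, a chain of collagen I, was at 469 CPM in that library and at 4642 to 12238 CPM in the other 5. Of the 5 genes with the largest SD within groups, 4 were Xist, Ddx3y, Kdm5d and Eif2s3y, of the X and Y chromosomes. The fifth was the epithelial keratin gene Krt8, at 95.4 and 94.5 CPM in nc shRNA replicate 5 and empty vector replicate 5 and at most 1.78 CPM in the other 4 libraries. The macrophage markers Lyz2 and C1qa and the scavenger receptor gene Stab1 had their highest values in the same pair: Stab1 was at 310 and 373 CPM there and at 7.08 to 32.9 CPM in the other 4 libraries. Among the 9 sinusoidal markers tested, 1 was higher with nc shRNA (11.1%, against 1.86% of all genes). It was the transcription factor gene Maf, at 118, 245 and 93.1 CPM against 46.6, 55.8 and 87.5 CPM (log2 fold change 1.27, 95% interval 0.21 to 2.32). The replicate block gave log2 fold changes of -0.47 for Sfrp2, -0.32 for Sox9 and 0.22 for Maf. The part of these differences between libraries in the lists above was not tested.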

How the data were processed

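Poly-A mRNA of cultured, transduced Cd146+ liver endothelial cells was sequenced and processed by Novogene. The submitters' processing notes name fastp and the build mm9, and the aligner and counter are not given in the sources used here. The authors deposited whole-number read counts for 56748 genes in each library without normalization, and these counts were the only values used. FPKM values and columns of the authors' own comparisons of P16 shRNA and P16 with their controls (group means, log2 fold changes, p-values) were deposited as well and were not used here. All count columns were matched to samples by name.

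The 6 libraries were compared with edgeR 4.0.16 in R 4.3.3 (filterByExpr, TMM, robust quasi-likelihood fit, two-sided test, Benjamini-Hochberg adjustment over all genes tested), and CPM are TMM-normalized. Standard errors were taken from the log2 fold change and its F statistic. Log2 CPM used a prior count of 2. Depth was 17710522 to 25523585 counts, which limits genes under about 1 CPM. DESeq2 1.42.0 gave size factors and a Wald test as alternatives. Both fits were also run on simulated counts with known changes. Those counts held no differences between replicate numbers or in cell content, so that run does not show how the fits handle such differences here. The interaction with Cd31+ cells used the 12 control libraries.

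The members, the 26 gene lists and the tests were chosen with earlier results of these data known, and list counts and medians carry no test. Genes named were drawn from Cdkn2a, the 12 genes of smallest p in each direction with non-overlapping groups and a mean of at least 1 CPM, the 3 members of each list highest in CPM, up to 3 of smallest p below 0.05, and the 5 genes of largest spread. Not all of these are printed, and the single values of some list members are not reported here. Further list members, Fras1 and Sfrp2 were named after their values were seen. The term for the Xist or Ddx3y pattern was added after the data were seen.

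In the 12 Cd146+ libraries, deviations from the group mean correlated with a median of 0.71 for the 10 pairs of one number (lowest 0.34) and of -0.08 for the 44 pairs of different numbers, so the numbers were taken to pair the samples. The 2 groups share number 5 alone, and the block could only be fitted with the other constructs.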

Additional observations from a re-analysis of the deposited data

How the results depend on the processing

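With DESeq2's size factors, library totals or a mean of at least 10 counts as the filter, the number of genes at an unadjusted p under 0.05 stayed within 1.5 times of 597. It moved further in other fits, and the cause was not tested unless the construction shows it. All genes with at least 1 count, more than were tested otherwise, gave 932 (544 lower) and 589 for the interaction. The 12 control libraries of both populations gave 1172 (549 higher, 623 lower), and the fit without both libraries numbered 5 gave 1049 (487 and 562). DESeq2's Wald test gave 492 lower genes and 4 genes after adjustment. The term for the Xist or Ddx3y pattern gave 295 (81 higher), with 3 cholesterol genes lower. The replicate block, which here rests on 1 empty vector library, gave 374 (137 higher), 7 lower interferon genes among those tested in that fit, 0 cholesterol genes lower, a cholesterol median of -0.30, a mitosis median that turned to 0.026 and a Cdkn2a log2 fold change that turned to -0.16. Interferon genes lower numbered 8 with all 12 Cd146+ libraries, 9 with the 12 control libraries and 10 without the libraries numbered 5, while the median of the list lay between -1.42 and -0.73 over the members that each alternative tested, and between -1.35 and -0.67 over the same 45, in both cases highest with the term for the Xist or Ddx3y pattern.

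With 1 library left out, which leaves 2 against 3, the count ranged from 184 to 1510 (69 to 734 higher, 115 to 776 lower), the interaction from 125 to 742, the interferon genes lower from 10 to 24, the cholesterol genes lower from 2 to 12 and the Cdkn2a log2 fold change from 0.26 to 0.80. The interaction count was 125 without Cd31+ empty vector replicate 1, and among the Cd146+ libraries it was 145 or 742 when replicate 3 or 5 of nc shRNA was left out and 560 when replicate 5 of empty vector was. Of 896 values of 56 of the genes printed beside Cdkn2a, 180 lost the unadjusted threshold and 7 changed direction. With the replicate block these were Ccl9 (0.21), Snai2 (0.090) and Xpo5 (-0.084). Irgm1 and mt-Atp6, which are printed but were not among these 56, turned with the block as well, to -0.39 and 0.07. Xpo5 ranged from -0.019 to 0.11 and Pdia3 from -0.021 to 0.049 with 1 library left out, and Pdia3 was at -0.0038 with library totals. In each alternative run with edgeR, 0 genes passed adjustment. Precision is limited by 3 libraries a group, and genes under about 1 CPM rest on few counts.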
